A study of Mus musculus with 24 samples.

Results

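The genotype by lymphoma interaction asks whether splenic T cells responded to a B-cell lymphoma in the same way when Atm was missing as when it was intact. For each gene it is the knockout (KO) response, lymphoma against control, minus the wild-type (WT) response, on the log2 scale. It was taken across all genes in 12 CD4 libraries and again in 12 CD8 libraries, which together are the 24 libraries of the whole series. Genes were then said to agree when both cell types gave an unadjusted p under 0.05 and the same sign. Of 34113 genes, 2 with a non-numeric cell were dropped, 11473 of the other 34111 had no count in any library, and 12450 had enough counts to be tested in both cell types.

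All mice were C57BL/6N. The 4 groups of each cell type, with 3 libraries each, were Atm-/- mice given a B-cell lymphoma transplant, Atm-/- mice with no transplant, Atmwt/wt mice given the transplant, and Atmwt/wt mice with no transplant. T cells were isolated from spleen, and polyadenylated RNA was read as 3′ tags. The CD4 and CD8 libraries came from the same 12 pools, which held 22 mice in all, so that agreement between the cell types is not replication in other mice. The WT lymphoma libraries were of single mice, and those of the other groups were pools of 2 or 3 mice. Mouse identifiers began with S or B, and what the letter stands for is not given. All mice of WT control 3 and of KO controls 2 and 3 had a B identifier, as did 1 of the 2 mice of KO lymphoma 1. The other pools had none, so the letter was uneven over the groups. The labels do not say how the Atm allele was made, where the lymphoma cells came from, or how CD4 and CD8 cells were separated.

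Atm encodes a kinase that is switched on by broken DNA and activates p53 and the repair machinery. Cells without it can accumulate DNA damage and cytosolic DNA, which is known to feed type I interferon signalling. Interferon acts through receptor-bound kinases to induce antiviral genes, and T cells in a host with a growing lymphoma meet interferon, cytokines and antigen. An interaction near 0 means that KO and WT responses were alike in size. A negative one means that the KO response was the lower of the pair, either because KO cells were already higher in control mice or because they were lower in lymphoma mice.

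The libraries held 6470482 to 10196062 counts, in 15263 to 17707 genes each. The labelled cell types were examined by their markers. Cd4 was at 65.9 to 139 CPM (counts scaled to a common library size) in CD4 and 1.42 to 7.99 CPM in CD8 libraries, and Cd8a was at 143 to 521 CPM in CD8 and 2.85 to 23.6 CPM in CD4 libraries. Some libraries stood apart. CD8 KO lymphoma 1 had summed CPM of 2380 for 24 B cell genes and 66700 for 17 erythroid genes, against at most 914 and 8120 in any other CD8 library. The CD4 KO controls had 1040 to 1290 for the B cell genes, above the other CD4 libraries, and KO controls 2 and 3 had 35100 and 19300 for the erythroid genes. KO lymphoma 3 had the lowest Cd3e of the CD4 libraries, at 73.5 CPM, and the highest summed level of 18 blood progenitor genes in both cell types, at 1440 CPM in CD4 and 1300 CPM in CD8. In CD8 cells Cd3e was at 74.9, 128 and 82.7 CPM in KO lymphoma libraries, against 186, 170 and 198 CPM in KO controls. Cd3d, Cd3g, Trac, Cd8a and Cd8b1 were also lower there without overlap. In WT CD8 cells Cd3e, Cd3d, Cd8a and Cd8b1 were lower with lymphoma without overlap. No defining marker of B cells, macrophages, neutrophils, platelets, erythroid cells, NK cells or progenitors was at 0 in any library. In bulk RNA, fewer cells of a type and less RNA per cell cannot be told apart. Summed CPM of 3 Y-linked genes ran from 0.944 to 209, so the pools also differed in their mix of males and females, which the labels do not give. All 3 WT control pools were high, at 70.4, 209 and 123 CPM in CD4 libraries. In the other groups only library 3 was high. KO controls had 2.64, 1.24 and 57.5 CPM, WT lymphoma 4.87, 1.84 and 117 CPM, and KO lymphoma 0.944, 3.15 and 47.7 CPM. The mix was therefore uneven over the groups of the interaction, and the main fits hold no term for it.

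Atm itself was lower in KO libraries in every group. In CD4 cells it was at 71.8, 105 and 24.9 CPM in KO lymphoma libraries 1, 2 and 3 and at 81.7, 87.2 and 83.7 CPM in KO controls. In WT cells it was at 156, 177 and 118 CPM with lymphoma, against 196, 198 and 155 CPM in controls. In CD8 cells it was at 84.4, 94.5 and 40.2 CPM in KO lymphoma and 89.6, 105 and 110 CPM in KO control libraries, against 191, 158 and 168 CPM in WT lymphoma and 205, 198 and 185 CPM in WT control libraries. No KO library reached a WT library of the same condition and cell type. The interaction of Atm was -0.04 ± 0.53 in CD4 cells, where the sign turned when KO lymphoma 3 was left out (0.34), and -0.29 ± 0.34 in CD8 cells (log2, ± standard error, as for all fold changes here).

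No gene passed the interaction test in either cell type. With the edgeR quasi-likelihood test and Benjamini-Hochberg adjustment, 0 of 12808 genes in CD4 and 0 of 12650 in CD8 had an adjusted p under 0.05 (0% of genes each), and the smallest adjusted p was 0.9999 and 0.743. At an unadjusted p under 0.05 there were 466 genes in CD4 (3.64%) and 442 in CD8 (3.49%), fewer than the 640 and 632 that this threshold gives where no gene differs. Of these, 145 were positive in CD4 and 155 in CD8, and the others were negative. When the CD4 and CD8 counts of a pool were summed, so that each pool gave 1 value, 0 of 13744 genes passed (0%) and 495 had an unadjusted p under 0.05, of which 352 were negative. DESeq2 called 1 gene in CD4, 1 in CD8 and 2 in the summed pools, with 451, 442 and 511 at an unadjusted p under 0.05. Limma with voom called 0 in all 3, with 843, 681 and 1046. The DESeq2 call in CD8 was Usp18. Its other calls were Rps16-ps2 in CD4 (-49.07) and in the summed pools (-30.06), and Amy2a4 in the summed pools (44.87). These log2 estimates are too extreme to be read as sizes of an interaction. The precision was limited, since the median standard error of an interaction was 0.33 in CD4 and 0.30 in CD8. The interaction did not detectably differ between the cell types. For CD8 minus CD4, 0 of 13232 genes passed (0%), 316 had an unadjusted p under 0.05 in edgeR, and DESeq2 and voom called 0 with 326 and 496.

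More genes passed in 1 genotype than the other, which is not a test of the interaction. In CD4 cells, lymphoma raised 0 genes and lowered 0 in KO mice (0% each), and it raised 207 (1.62%) and lowered 9 (0.0703%) in WT mice at an adjusted p under 0.05 in edgeR. In CD8 cells, it raised 176 genes (1.39%) and lowered 100 (0.791%) in KO mice, and it raised 160 (1.26%) and lowered 20 (0.158%) in WT mice. The 0 in KO CD4 cells stood beside the largest spread of the 8 groups: the median SD of log2 CPM was 0.33 in CD4 KO lymphoma libraries, against 0.16 in CD4 KO controls, 0.22 in CD4 WT lymphoma and 0.22 in CD4 WT controls.

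Across the 12450 genes tested in both, 60 agreed and 4 had unadjusted p-values under 0.05 with opposite signs. The 60 were 12.9% of the CD4 and 13.6% of the CD8 genes under that threshold. Of the 60, 49 were negative in both (0.394% of genes tested in both) and 11 were positive in both (0.0884%). Pearson's r of the CD4 and CD8 interactions over all 12450 genes was 0.075 and Spearman's rho was 0.194. Genes are not independent, and the points share the same mice. The 4 of opposite sign were Akap12, Bend5, Chst15 and Gm14414, named here because they are all there were. The genes that agree were chosen on the interaction itself, so their values below are a description and carry no further test.

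**Figure D1:**
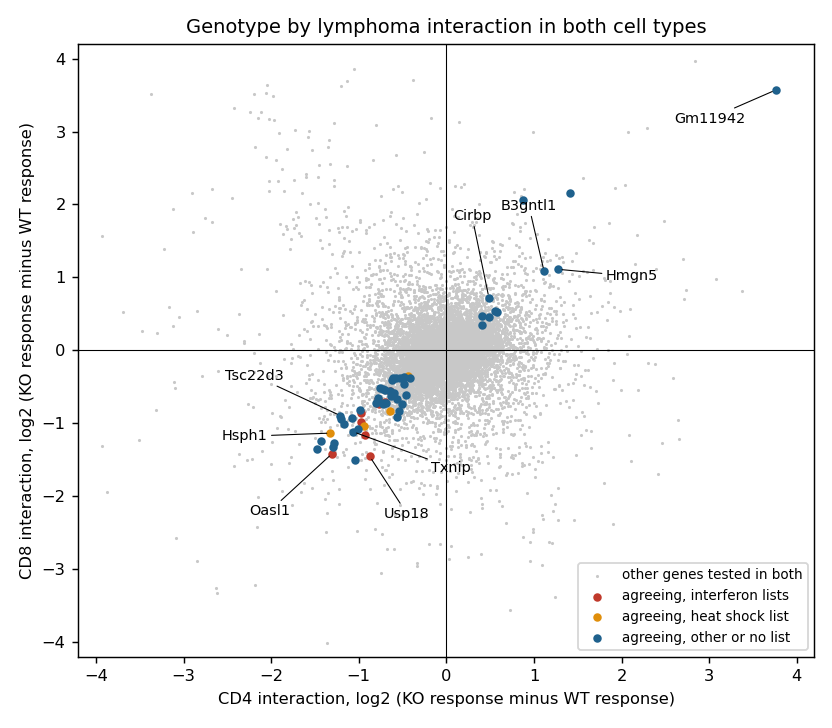
Interaction in CD4 cells (x axis) against CD8 cells (y axis), both in log2, for the 12450 genes tested in both, with the 60 agreeing genes in colour; 25 genes lie beyond the axis limits of 4.2. The 49 negative genes form a group at the lower left that holds the interferon and heat shock genes, and the 11 positive ones lie at the upper right.

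The negative genes were of moderate size. Their interactions ran from -1.47 to -0.41 in CD4 cells (median -0.75) and from -1.50 to -0.35 in CD8 cells (median -0.74), against a median over all genes of -0.02 and -0.03. In KO against WT controls, 48 of the 49 were higher in KO in CD4 and 47 in CD8 cells, with medians of 0.62 and 0.46. With lymphoma, 31 of 49 were lower in KO in CD4 and 38 in CD8 cells, with medians of -0.26 and -0.25. A negative interaction is the lymphoma difference minus the control difference, so the choice itself favours these signs. The control difference was the larger of the pair in 30 genes in CD4, in 30 in CD8, and in both cell types in 26. In the other 19 of each cell type the lymphoma difference was larger, in 15 of them in both. The estimated responses were up in WT and down in KO for 30 genes in CD4 and 27 in CD8, and up in both genotypes for 18 and 16.

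**Figure D2:**
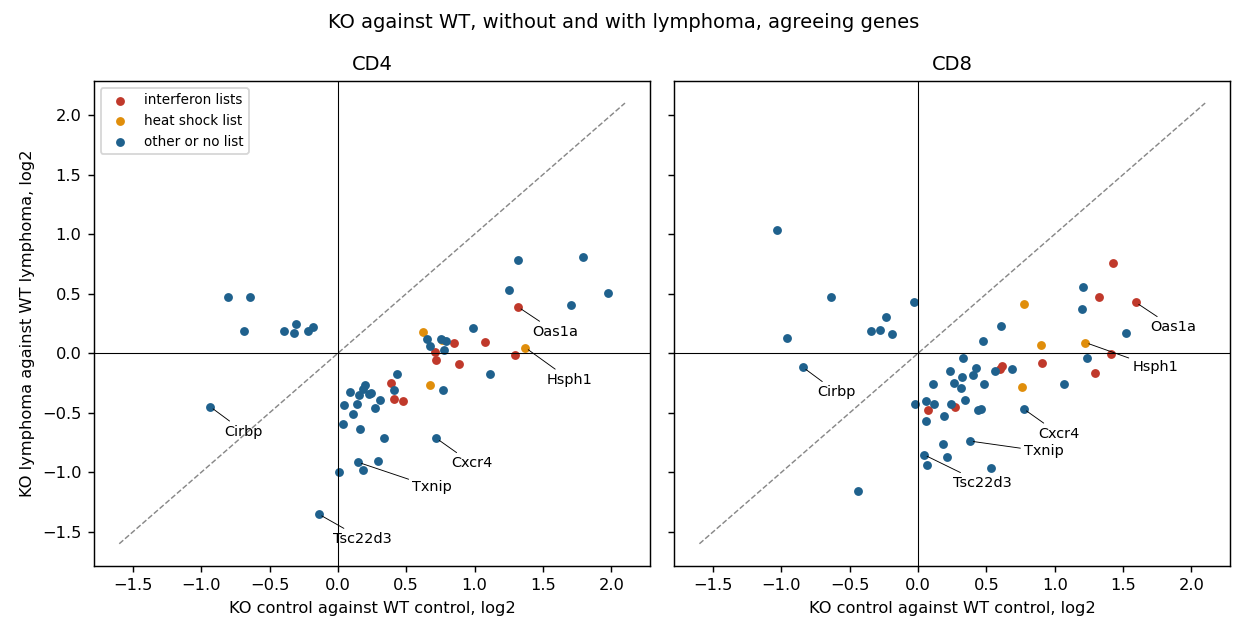
KO against WT in control mice (x axis) and in lymphoma mice (y axis), log2, for the agreeing genes in CD4 and CD8 cells, without the pseudogenes Gm11942 and Gm5244, which lie beyond the axes. Points under the dashed line have a negative interaction. Interferon and heat shock genes lie to the right of 0, most of them within 0.5 of 0 on the y axis, and Tsc22d3 lies near 0 on the x axis and below 0 on the y axis.

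Type I interferon-stimulated genes made up 9 of the 49, and 8 of them are described here: Oasl1, Oas1a, Lgals3bp, Oas3, Usp18, Bst2, Ly6c2 and Ly6a. With lymphoma these 8 rose in WT CD4 cells, and all but Ly6c2 (edgeR adjusted p = 0.125) rose in WT CD8 cells. In control mice each of the 8 was higher in KO than in WT cells, by 0.48 (Usp18 in CD4) to 1.59 (Oas1a in CD8). Oas1a and Oas3 encode enzymes that sense double-stranded RNA and activate RNase L, and Oasl1 encodes a related protein without that enzyme activity. In CD4 cells Oas1a was at 44.1, 40.4 and 40.8 CPM in KO lymphoma and 20.6, 19.9 and 15.9 CPM in KO control libraries. It was at 22.1, 35.7 and 38.0 CPM in WT lymphoma, against 8.29, 8.71 and 5.47 CPM in WT control libraries. No library of either genotype overlapped between lymphoma and control, and the 3 KO controls lay above the 3 WT controls. In CD8 cells Oas1a was at 40.1, 44.5 and 34.5 CPM in KO lymphoma and 19.4, 17.8 and 14.2 CPM in KO control libraries, against 26.7, 28.1 and 33.8 CPM in WT lymphoma and 4.12, 6.85 and 5.91 CPM in WT control libraries. The response of Oas1a was 1.15 in KO and 2.08 in WT CD4 cells, and 1.22 in KO and 2.38 in WT CD8 cells. The WT responses passed (edgeR adjusted p = 0.00311 in CD4 and 0.00033 in CD8), as did the KO response in CD8 cells (0.0227) but not in CD4 cells (0.0918). The interaction was -0.93 ± 0.31 in CD4 and -1.17 ± 0.27 in CD8 cells.

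Oasl1 was also higher in KO than in WT controls. It was at 10.7, 11.7 and 11.7 CPM in CD4 KO lymphoma and 7.91, 7.03 and 6.44 CPM in KO control libraries, against 9.62, 12.4 and 12.4 CPM in WT lymphoma and 3.86, 1.92 and 2.89 CPM in WT controls. With lymphoma the genotypes overlapped, and without it they did not. The CD8 libraries had 15.3, 11.6 and 9.25 CPM in KO lymphoma and 3.23, 5.57 and 7.64 CPM in KO control libraries, against 9.62, 12.1 and 14.6 CPM in WT lymphoma and 2.41, 1.51 and 2.32 CPM in WT controls. The interaction was -1.30 ± 0.34 in CD4 and -1.42 ± 0.46 in CD8 cells. For Oas3 it was -0.98 ± 0.38 and -0.99 ± 0.35.

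Usp18, a protease that removes the ubiquitin-like protein Isg15 and dampens interferon receptor signalling, had the smallest p of all genes in CD8 cells with an edgeR adjusted p of 0.743. It is named for that value. There it was at 41.8, 53.7 and 35.9 CPM in KO lymphoma and 25.4, 23.6 and 19.8 CPM in KO control libraries, against 44.0, 48.5 and 54.6 CPM in WT lymphoma and 8.52, 8.70 and 10.8 CPM in WT control libraries. The KO controls all lay above the WT controls, and the lymphoma libraries of the genotypes overlapped. The interaction was -1.45 ± 0.24 in CD8 cells, and DESeq2 called it there (-1.44, adjusted p = 0.00636). In CD4 cells it was at 34.3, 57.8 and 25.7 CPM in KO lymphoma and 18.3, 20.4 and 19.1 CPM in KO control libraries, against 41.7, 63.3 and 50.7 CPM in WT lymphoma and 16.3, 14.1 and 10.9 CPM in WT controls. There the interaction was -0.88 ± 0.38.

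Lgals3bp, a secreted glycoprotein that binds galectins, was at 42.0, 53.3 and 45.6 CPM in CD4 KO lymphoma and 31.8, 25.7 and 28.2 CPM in KO control libraries, against 38.2, 49.9 and 51.5 CPM in WT lymphoma and 21.0, 15.4 and 15.8 CPM in WT controls. Its interaction was -0.70 ± 0.24 in CD4 and -0.71 ± 0.18 in CD8 cells. Bst2, or tetherin, which holds budding virus at the cell surface, had -0.77 ± 0.33 and -0.74 ± 0.23.

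Of the 60 type I interferon genes tested in both, 54 had a negative interaction in both cell types and 0 a positive one in both, against 4111 and 3274 of all 12450 genes. Of all genes tested, 466 of 12808 in CD4 and 442 of 12650 in CD8 had an unadjusted p under 0.05. Of these, 145 and 155 were positive and the others negative. Of the list, 17 were negative and 0 positive at that threshold in CD4, and 15 were negative and 1 positive in CD8. The negative count was 30 in CD4 and 29 in CD8 without KO lymphoma 2, 12 in CD4 without KO lymphoma 3 and 9 in CD8 without KO control 3. The median interaction of the list was -0.53 in CD4 and -0.36 in CD8 cells. Its median response was 0.63 in KO and 1.0 in WT CD4 cells, and 0.75 in KO and 1.18 in WT CD8 cells. The median of KO against WT was 0.33 in CD4 and 0.28 in CD8 controls and -0.14 and -0.12 with lymphoma. At an edgeR adjusted p under 0.05, lymphoma raised 32 of the 60 in WT CD4 and 33 in WT CD8 cells, against 201 and 159 of all 12450 genes. In KO mice it raised 0 in CD4 and 24 in CD8 cells, against 0 and 174 of all 12450 genes. No gene passed in KO CD4 cells, so the 0 there is not a result about the list. In the mean log2 CPM of the list, KO lymphoma 3 was the lowest lymphoma library in both cell types, at 5.55 in CD4 and 5.64 in CD8 cells, and KO lymphoma 1 and 2 were at 6.20 and 6.43 in CD4 and 6.10 and 6.33 in CD8 cells. WT lymphoma libraries were at 6.07, 6.33 and 6.36 in CD4 and 5.92, 6.10 and 6.26 in CD8 cells. Without KO lymphoma 3 the median interaction was -0.33 in CD4 and -0.21 in CD8 cells, and without KO lymphoma 2 it was -0.72 and -0.59.

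Interferon gamma response genes include GTPases that attack intracellular pathogens. Of 34 tested in both, 27 were negative in both and 0 positive in both, against 4111 and 3274 of all 12450 genes. The medians of the list were -0.32 in CD4 and -0.31 in CD8 cells. Among all genes tested, 3.64% in CD4 and 3.49% in CD8 had an unadjusted p under 0.05, with either sign. Without KO lymphoma 2 the medians of the list were -0.51 and -0.50. Its genes negative at that threshold, which were 3 and 5, were then 13 and 15. They were 0 in CD4 without KO control 1 and 0 in CD8 without WT lymphoma 3. Of the list 1 agreed, Igtp. In CD4 cells Igtp was at 84.4, 130 and 53.5 CPM in KO lymphoma and 82.9, 80.4 and 75.4 CPM in KO control libraries, against 115, 113 and 122 CPM in WT lymphoma and 72.7, 52.0 and 54.7 CPM in WT controls. WT lymphoma libraries lay above WT controls without overlap, and KO lymphoma libraries lay on both sides of KO controls. The interaction was -0.79 ± 0.35 in CD4 and -0.72 ± 0.32 in CD8 cells. Irgm2, of the same GTPase family, had -0.59 ± 0.31 and -0.70 ± 0.26.

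**Figure D3:**
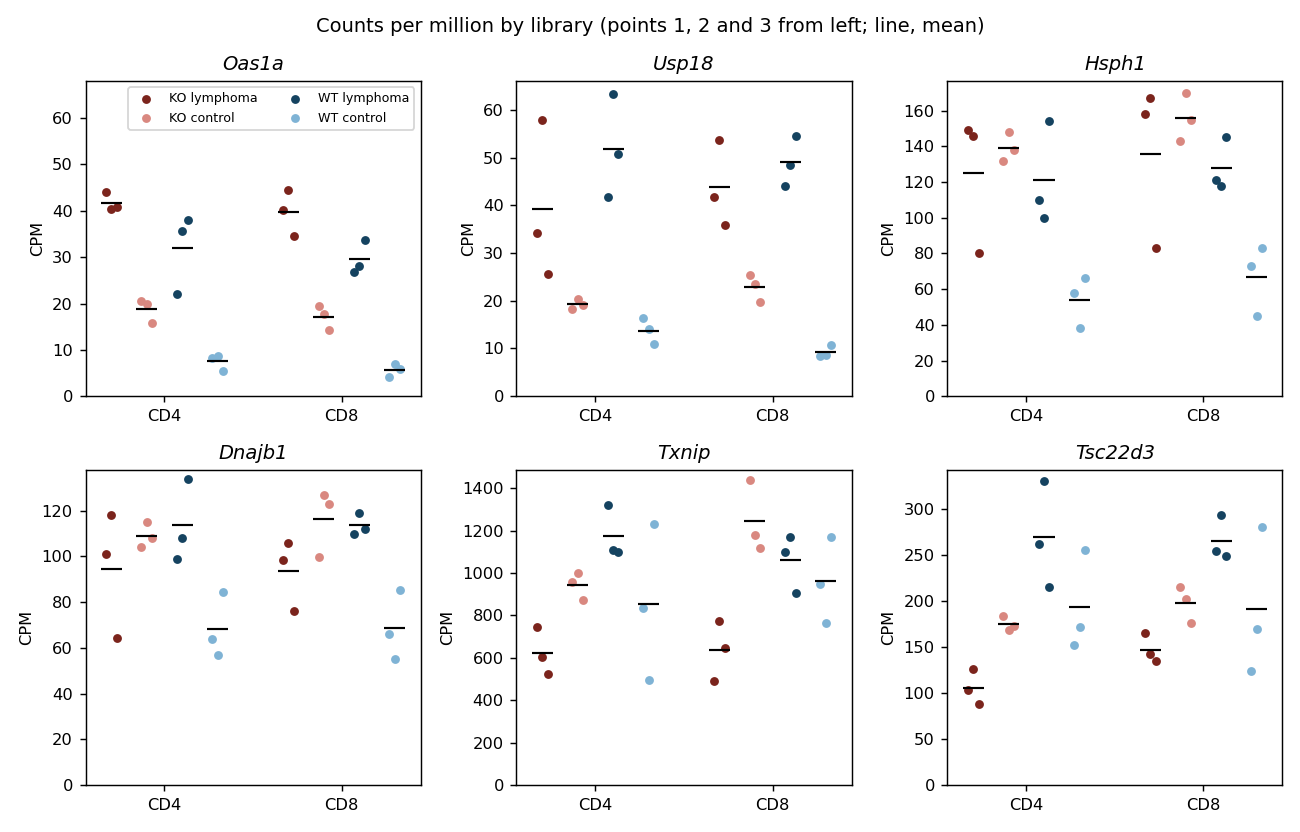
CPM in each library for 3 sets of genes: Oas1a and Usp18 (interferon), Hsph1 and Dnajb1 (heat shock), and Txnip and Tsc22d3. Each point is 1 library, numbered 1 to 3 from left to right, and the line is the group mean. For Oas1a, Usp18, Hsph1 and Dnajb1 the WT controls form the lowest group, and for Txnip and Tsc22d3 the KO lymphoma libraries do.

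Heat shock genes gave 4 of the 49: Dnajb1, Hsph1, Stip1 and Hspa8. These encode cytosolic chaperones and co-chaperones that refold damaged proteins, with Hspa8 the constitutive Hsp70 protein and Stip1 the adaptor that hands clients to Hsp90. Hsph1 was at 149, 146 and 80.5 CPM in CD4 KO lymphoma and 132, 148 and 138 CPM in KO control libraries, against 110, 100 and 154 CPM in WT lymphoma and 57.8, 38.3 and 66.0 CPM in WT controls. The CD8 libraries had 158, 167 and 82.8 CPM in KO lymphoma and 143, 170 and 155 CPM in KO controls, against 121, 118 and 145 CPM in WT lymphoma and 72.7, 45.0 and 82.9 CPM in WT controls. The WT controls were the low group in both cell types, and KO lymphoma 3 was the low library among the KO pools. The response was -0.16 in KO and 1.17 in WT CD4 cells, and the WT response passed there (edgeR adjusted p = 0.0439). It was -0.20 in KO and 0.94 in WT CD8 cells (edgeR adjusted p = 0.0946 in WT). The interaction was -1.32 ± 0.36 in CD4 and -1.13 ± 0.37 in CD8 cells.

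Dnajb1, the Hsp40 partner of Hsp70, was at 101, 118 and 64.1 CPM in CD4 KO lymphoma and 104, 115 and 108 CPM in KO control libraries, against 98.9, 108 and 134 CPM in WT lymphoma and 64.0, 56.9 and 84.4 CPM in WT controls. The interaction was -0.94 ± 0.30 in CD4 and -1.04 ± 0.24 in CD8 cells. For Stip1 it was -0.65 ± 0.23 and -0.83 ± 0.24. Hspa8 was the most abundant of the 4, at 1540, 1480 and 1490 CPM in CD8 KO lymphoma and 1330, 1370 and 1300 CPM in KO control libraries, against 1070, 1100 and 1200 CPM in WT lymphoma and 734, 728 and 885 CPM in WT controls. None of these 4 groups overlapped, and the interaction was the smallest of the 4 genes, at -0.35 ± 0.15 in CD8 and -0.44 ± 0.19 in CD4 cells.

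Of 17 heat shock genes tested, 16 were negative in both and 0 positive in both, against 4111 and 3274 of all 12450 genes. The medians of the interaction were -0.46 in CD4 and -0.51 in CD8 cells. At an unadjusted p under 0.05, 4 and 8 genes of the list were negative (3 in each without WT control 2). That threshold was met, with either sign, by 3.64% of all genes tested in CD4 and 3.49% in CD8. The median response of the list was 0.10 in KO and 0.59 in WT CD4 cells, and 0.12 in KO and 0.61 in WT CD8 cells. KO against WT controls had a median of 0.56 in CD4 and 0.70 in CD8 cells, and KO against WT with lymphoma 0.18 and 0.09. When each pool was left out in turn the median stayed between -0.57 and -0.36 in CD4 and between -0.71 and -0.40 in CD8 cells.

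Promoter windows were read for the agreeing genes, since some belong to families with a known DNA element. RefSeq windows of GRCm38.p6, from 250 bases before to 50 after a transcript start, were found for 43 of the 60 genes and 37 of the 49 negative ones. The core of the interferon-stimulated response element, searched as GAAANNGAAA on both strands, was in 3.44% of all windows, in 40.7% of those of the type I interferon list and in 8.70% of those of the negative genes, where it was in 4 genes (Oas1a, Oas3, Bst2 and Igtp). The heat shock element, searched as GAANNTTCNNGAA on both strands, was in 0.603% of all windows, in 25.0% of those of the heat shock list and in 6.52% of those of the negative genes, where it was in 2 genes (Hsph1 and Bst2). A match describes the letters in the window and does not show binding. Stretches that hold a match are given below for Oas1a, Oas3, Igtp and Hsph1. These were picked for holding a match, and not for the size or steadiness of their interaction. Bst2 holds both elements and is not printed. They run 5′ to 3′ along the gene's strand, and capitals mark the match, which in Oas1a is 2 overlapping matches. The first 3 are the 100 bases before the transcript start of the window used. They lie at chr5:120907526-120907625 on the minus strand (Oas1a), chr5:120777660-120777759 on the minus strand (Oas3) and chr11:58199456-58199555 on the plus strand (Igtp). The Hsph1 stretch of 30 bases, at chr5:149636280-149636309 on the minus strand, lies just after the transcript start of its window. It holds the element in reverse complement. For Oas1a, Oas3 and Hsph1 the annotated gene begins upstream of the start used, at chr5:120907544, chr5:120777684 and chr5:149636498.
Oas1a: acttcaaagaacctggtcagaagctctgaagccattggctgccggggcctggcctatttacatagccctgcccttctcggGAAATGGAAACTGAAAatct
Oas3: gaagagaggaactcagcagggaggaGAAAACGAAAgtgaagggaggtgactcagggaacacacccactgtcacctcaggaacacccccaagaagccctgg
Igtp: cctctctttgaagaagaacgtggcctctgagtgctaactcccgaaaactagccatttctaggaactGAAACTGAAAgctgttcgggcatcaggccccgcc
Hsph1: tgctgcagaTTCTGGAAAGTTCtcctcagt

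In other genes the KO and WT controls overlapped, and KO libraries lay below WT libraries with lymphoma. The patterns grade into each other. In controls, KO against WT was 0.38 for Txnip in CD8 cells and 0.30 for Ddit4 in CD4 cells. Cd3e and other T cell markers were also lower in the CD8 KO lymphoma libraries, as given above. Tsc22d3, also called Gilz, is induced by glucocorticoids and restrains T cell activation. In CD4 cells it was at 103, 126 and 88.6 CPM in KO lymphoma and 184, 169 and 173 CPM in KO control libraries, against 262, 331 and 216 CPM in WT lymphoma and 152, 172 and 256 CPM in WT controls. In CD8 cells it averaged 147 ± 15.3 CPM in KO lymphoma and 198 ± 19.8 CPM in KO control libraries, against 266 ± 24.4 CPM in WT lymphoma and 192 ± 80.6 CPM in WT controls (SD, n = 3 each). KO lymphoma libraries lay below KO controls and below WT lymphoma libraries without overlap in both cell types, and the controls of the genotypes overlapped. The interaction was -1.21 ± 0.30 in CD4 and -0.89 ± 0.33 in CD8 cells.

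Txnip, which binds thioredoxin and limits glucose uptake, was at 744, 604 and 523 CPM in CD4 KO lymphoma and 957, 1000 and 875 CPM in KO control libraries, against 1320, 1110 and 1100 CPM in WT lymphoma and 834, 496 and 1230 CPM in WT controls. In CD8 cells it was at 489, 773 and 644 CPM in KO lymphoma and 1440, 1180 and 1120 CPM in KO controls, against 1100, 1170 and 908 CPM in WT lymphoma and 949, 762 and 1170 CPM in WT controls. Again the KO lymphoma libraries lay below both KO controls and WT lymphoma libraries, and WT controls were spread widely. In CD8 cells Txnip fell in KO mice (-0.97, edgeR adjusted p = 0.0386), while the WT value was 0.14 (adjusted p = 0.754). The interaction was -1.06 ± 0.37 in CD4 and -1.12 ± 0.27 in CD8 cells.

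Zfp36l2, an RNA-binding protein that speeds decay of cytokine mRNAs and favours quiescence, was at 361, 296 and 338 CPM in CD4 KO lymphoma and 406, 428 and 431 CPM in KO control libraries, against 768, 647 and 577 CPM in WT lymphoma and 361, 256 and 644 CPM in WT controls. Its interaction was -1.01 ± 0.37 in CD4 and -1.08 ± 0.39 in CD8 cells. Dusp2, a nuclear phosphatase of MAP kinases, had -1.16 ± 0.38 and -1.0 ± 0.38. Ddit4, a stress-induced inhibitor of mTORC1 that was picked after its values were seen, had -1.20 ± 0.37 and -0.95 ± 0.39. In Tsc22d3, Txnip, Zfp36l2 and Ddit4, WT control 3 was the highest WT control in both cell types.

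Cxcr4, the receptor for the chemokine Cxcl12, combined both patterns. In CD8 cells it ran from 202 to 320 CPM in KO lymphoma and from 340 to 486 CPM in KO control libraries, against 366 to 385 CPM in WT lymphoma and 159 to 357 CPM in WT controls. KO lymphoma libraries lay below KO controls and below WT lymphoma libraries. WT control 3 lay far above the other WT controls, at 357 CPM beside 159 and 198 CPM in CD8 cells and at 307 CPM beside 95.0 and 111 CPM in CD4 cells. The interaction was -1.44 ± 0.51 in CD4 and -1.24 ± 0.38 in CD8 cells. Without WT control 3 it was -2.16 in CD4 cells and passed (edgeR adjusted p = 0.0358).

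Among the other negative genes were cytokine and activation genes. Il2rb, the beta chain of the interleukin 2 and 15 receptors, was at 652, 1190 and 979 CPM in CD8 KO lymphoma and 1270, 1260 and 1270 CPM in KO control libraries, against 583, 698 and 642 CPM in WT lymphoma and 513, 564 and 568 CPM in WT controls. KO controls were the highest group without overlap, and KO against WT controls passed (1.21, edgeR adjusted p = 0.0122). Its interaction was -0.65 ± 0.25 in CD8 and -0.78 ± 0.29 in CD4 cells. Jak3, the kinase of the common gamma chain, had -0.92 ± 0.32 in CD8 and -0.57 ± 0.25 in CD4 cells. Id2, which favours effector differentiation, had -0.51 ± 0.23 and -0.75 ± 0.28. Rgs1, which turns off chemokine receptor signals, had -1.28 ± 0.58 and -1.29 ± 0.30. Of all 12450 genes, 49 agreed as negative and 4111 were negative in both. Of 33 cytokine receptor and STAT genes 2 agreed, Il2rb and Jak3, and 22 were negative in both. Of 30 cytotoxic and effector genes 2 agreed, Il2rb and Id2, and 23 were negative and 2 positive in both, with medians of -0.52 in CD4 and -0.33 in CD8 cells (-0.34 and -0.11 without WT control 1, -0.79 in CD4 without WT control 3). Of 26 early response genes 2 agreed, Dusp2 and Rgs1, and 21 were negative in both, with medians of -0.47 and -0.31 (-0.24 and -0.12 without WT control 2, -0.56 in CD8 without WT control 3).

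Ccdc117 had the smallest larger p of the agreeing genes with unadjusted edgeR p-values of 0.00225 in CD4 and 0.00417 in CD8 cells. It was at 72.5, 64.6 and 54.6 CPM in CD4 KO lymphoma and 71.4, 79.1 and 77.0 CPM in KO control libraries, against 68.6, 73.5 and 95.1 CPM in WT lymphoma and 46.0, 31.7 and 56.2 CPM in WT controls. The WT controls were low, as for the heat shock genes, and the interaction was -1.07 ± 0.28 in CD4 and -0.93 ± 0.26 in CD8 cells. Cyp2e1, a cytochrome P450 enzyme known mainly from liver, was low throughout, at 4.05 to 14.0 CPM over both cell types, with an interaction of -1.05 ± 0.36 in CD4 and -1.50 ± 0.40 in CD8 cells.

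The 11 positive genes were on none of the gene lists, and 3 of them were predicted genes. Cirbp, the cold-inducible RNA-binding protein, was at 29.5, 35.4 and 35.3 CPM in CD4 KO lymphoma and 30.8, 42.0 and 38.1 CPM in KO control libraries, against 50.8, 41.9 and 44.3 CPM in WT lymphoma and 76.6, 72.0 and 63.1 CPM in WT controls. The CD8 libraries had 32.9, 33.6 and 46.9 CPM in KO lymphoma and 39.5, 33.9 and 41.0 CPM in KO controls, against 45.1, 41.1 and 36.8 CPM in WT lymphoma and 73.5, 71.6 and 60.1 CPM in WT controls. The WT controls were the highest group without overlap, the mirror of the heat shock genes. The interaction was 0.48 ± 0.21 in CD4 and 0.72 ± 0.22 in CD8 cells, and the response in WT CD8 cells passed (-0.74, edgeR adjusted p = 0.0404).

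B3gntl1, a predicted glycosyltransferase, had an interaction of 1.11 ± 0.39 in CD4 and 1.09 ± 0.40 in CD8 cells. Hmgn5, a nucleosome-binding protein, had 1.28 ± 0.51 and 1.11 ± 0.40, and all 4 of its groups overlapped in both cell types. Usp40, a deubiquitinase, had 0.58 ± 0.20 and 0.53 ± 0.20. Gnl3, a nucleolar GTPase known as nucleostemin, had 0.55 ± 0.20 and 0.54 ± 0.21. The mitochondrial ribosomal protein gene Mrpl42, the tRNA methyltransferase subunit gene Trmt6 and the deubiquitinase gene Otud6b had 0.49 ± 0.21, 0.40 ± 0.18 and 0.41 ± 0.16 in CD4 cells and 0.46 ± 0.19, 0.35 ± 0.16 and 0.47 ± 0.20 in CD8 cells.

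The largest agreeing interaction belonged to Gm11942, a pseudogene on chromosome 4 (GRCm38.p6, chr4:32964806-32965273), named here after its values were seen. In CD4 cells it was at 347, 656 and 449 CPM in KO lymphoma and 577, 488 and 602 CPM in KO control libraries, against 12.1, 8.50 and 14.5 CPM in WT lymphoma and 238, 17.7 and 287 CPM in WT controls. WT control 2 was far below the other WT controls and just above the WT lymphoma libraries. Its CD8 level was 9.98 CPM beside 240 and 286 CPM, and there it lay below the WT lymphoma libraries. The interaction was 3.76 ± 0.99 in CD4 and 3.57 ± 1.15 in CD8 cells. Without WT control 2 it was 4.31 and 4.16 and passed in both (edgeR adjusted p = 0.00195 and 0.0018). That fit leaves out the only WT control pool near the level of the WT lymphoma libraries, so the low level also occurred without lymphoma. The pseudogene Gm5244 on chromosome 19 gave 1.41 ± 0.57 and 2.16 ± 0.89, with WT control 2 again the lowest WT control. Reads of a pseudogene can belong to its near-identical parent or to other copies, so these levels are uncertain.

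**Figure D4:**
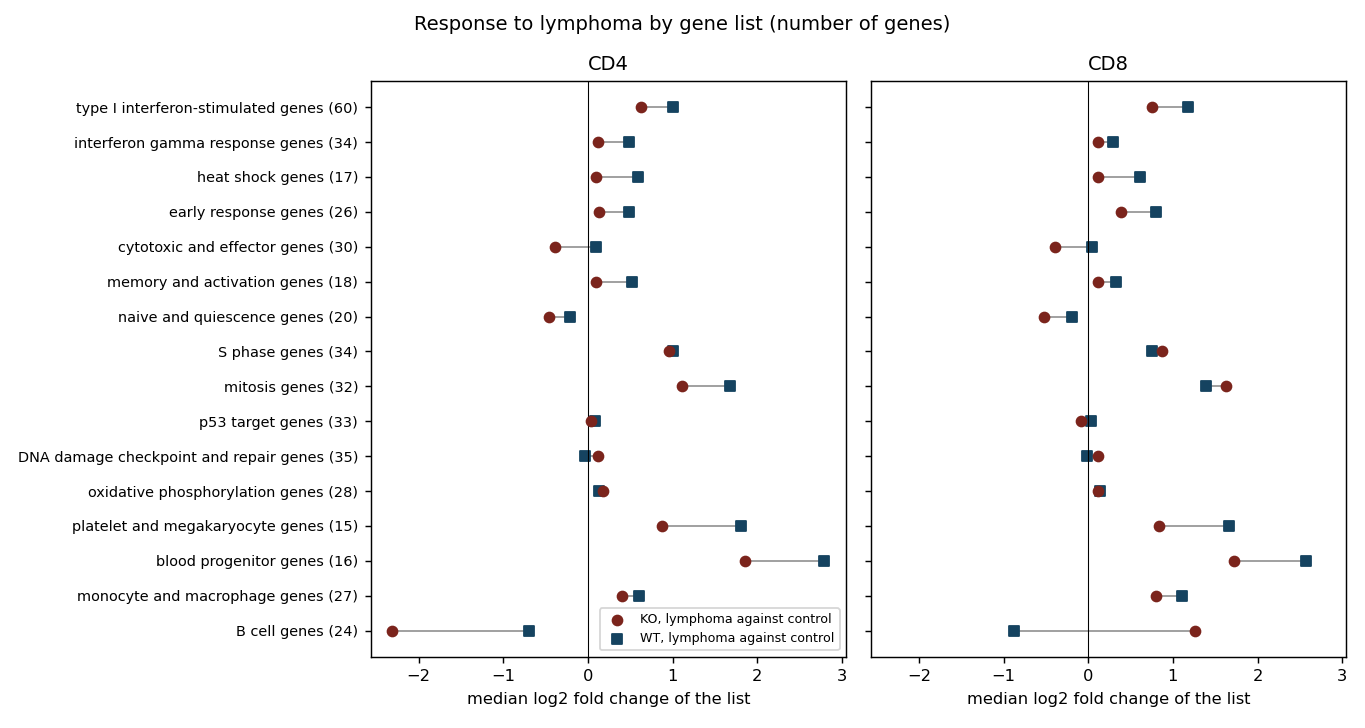
Median log2 fold change of lymphoma against control for 16 gene lists, with the number of genes tested in both cell types in brackets; circles are KO and squares are WT. The KO median lies below the WT median in both cell types for most lists. These are the interferon, heat shock, early response, effector, memory, naive, p53 target, platelet, progenitor and monocyte lists. For the DNA damage list it lies above the WT median in both. For the B cell and mitosis lists it lies below the WT median in CD4 and above it in CD8 cells.

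Lists of pathways tied to Atm held no agreeing gene, which is near the share of all genes that agreed (0.394% negative and 0.0884% positive) and so is not a result about them. Of 33 p53 target genes 0 agreed, and the medians of the interaction were -0.04 in CD4 and -0.14 in CD8 cells. Cdkn1a, the p53-induced inhibitor of cell cycle kinases, was at 10, 7.57 and 8.31 CPM in CD4 KO lymphoma and 4.40, 3.31 and 2.44 CPM in KO control libraries, against 2.57, 4.94 and 7.12 CPM in WT lymphoma and 0.681, 0.513 and 0.912 CPM in WT controls. Lymphoma libraries lay above controls in both genotypes, and KO above WT in both conditions, without overlap. The interaction was -1.44 ± 0.56 in CD4 and -0.67 ± 0.65 in CD8 cells. Bbc3, which encodes the death protein Puma, had -0.33 ± 0.23 and -0.77 ± 0.25. Of 35 DNA damage checkpoint and repair genes 0 agreed, with medians of 0.10 and 0.15. In either cell type 0 of them had an unadjusted p under 0.05, against 3.64% of all genes tested in CD4 and 3.49% in CD8. Of 34 S phase genes 0 agreed (medians -0.03 and 0.04), and of 32 mitosis genes 0 agreed (medians -0.52 in CD4 and 0.28 in CD8 cells). The mitosis medians moved with single pools: they were -1.36 and 0.02 without KO lymphoma 3, and the CD4 median was -0.10 without KO control 2.

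T cell state lists varied. An unadjusted p under 0.05, of either sign, was met by 3.64% of all genes tested in CD4 and 3.49% in CD8. Follicular helper genes had 5 of 12 negative at an unadjusted p under 0.05 in CD4 and 1 in CD8 cells, with medians of -0.36 and 0.36. Regulatory T cell genes had 3 of 14 and 0 negative at that threshold, with medians of -0.35 and 0.20, and inhibitory receptor and exhaustion genes had 3 of 15 and 0, with medians of -0.35 and -0.11. Of 20 killer cell receptor and NK genes 1 and 0 were negative at that threshold, with medians of -0.34 and 0.14. No list was tested for a difference between the cell types. Of 20 naive and quiescence genes 18 were negative in both and 0 agreed, with medians of -0.19 in CD4 and -0.24 in CD8 cells, and the CD4 median was 0.05 without KO lymphoma 3 and the medians were -0.48 and -0.44 without KO lymphoma 2. Klf2, which keeps T cells recirculating, had -0.60 ± 0.33 and -0.53 ± 0.21. Of 20 T cell receptor signalling genes 15 were negative in both and 0 agreed, with medians of -0.13 in CD4 and -0.36 in CD8 cells. Their median response in CD8 cells was -0.71 in KO and -0.37 in WT mice. Of 18 memory and activation genes 16 were negative in both and 0 agreed. Among them Cd69, an early marker of activation, had -1.03 ± 0.47 and -1.15 ± 0.43, with unadjusted edgeR p-values of 0.0506 and 0.0214. Some genes differed in 1 cell type alone by this threshold, which is not a test of a difference between the cell types. Maf, a follicular helper factor, had -0.90 ± 0.20 in CD4 and -0.25 ± 0.43 in CD8 cells, and in CD8 cells its sign turned without WT control 1 (0.05).

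Markers of other cells moved in the same libraries. Of all 12450 genes, 4111 were negative in both cell types. Platelet and megakaryocyte genes had medians of -0.81 in CD4 and -0.83 in CD8 cells (-0.34 and -0.43 without KO control 1), with 12 of 15 negative in both and 1 that agreed, Gp9 (-1.47 ± 0.59 and -1.35 ± 0.53), a subunit of the platelet von Willebrand factor receptor. Blood progenitor genes had medians of -0.83 and -0.71 (-0.26 and -0.42 without WT lymphoma 3, -1.23 and -1.48 without KO lymphoma 3), with 12 of 16 negative in both and 1 that agreed, Angpt1 (-1.30 ± 0.49 and -1.32 ± 0.46), a ligand of the receptor Tie2. The summed CPM of 16 platelet genes was 366 to 591 in CD4 KO lymphoma and 205 to 402 in KO control libraries, against 327 to 359 in WT lymphoma and 134 to 149 in WT controls. In CD8 cells it reached 531 in KO lymphoma and 335 in KO control libraries, against 404 in WT lymphoma and 137 in WT controls. WT controls were the lowest group, as for the interferon and heat shock genes. The summed CPM of 18 progenitor genes was 465 to 1440 in CD4 KO lymphoma and 312 to 396 in KO control libraries, against 372 to 843 in WT lymphoma and 199 to 221 in WT controls. The summed CPM of 27 monocyte and macrophage genes was 3760 to 4590 in CD4 KO lymphoma and 2710 to 3550 in KO control libraries, against 2190 to 2840 in WT lymphoma and 1220 to 2020 in WT controls, and 20 of 27 were negative in both. B cell genes had medians of -1.41 in CD4 and 2.20 in CD8 cells, with the CD4 KO controls and CD8 KO lymphoma 1 standing apart, and 0 of 24 agreed. With genes of other cell types left out, 57 genes agreed, 50 of them among the 60. Whether RNA of such cells had a part in the agreeing genes was not tested.

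**Figure D5:**
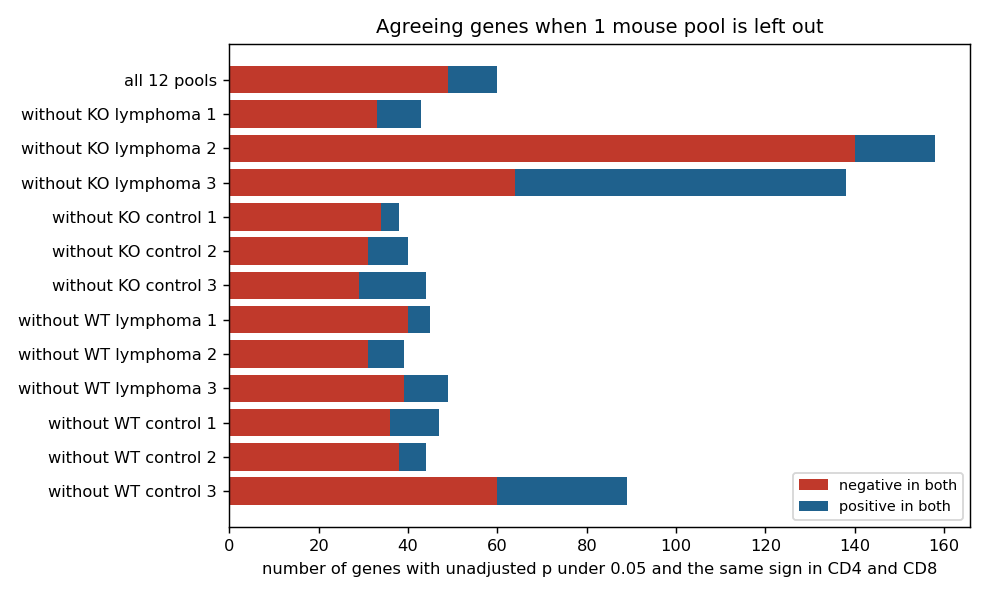
Number of genes that agreed in CD4 and CD8 cells (x axis) with all 12 pools and with each pool left out of both fits, split by sign. The total runs from 38 to 158, with the longest bars without KO lymphoma 2 and KO lymphoma 3, and the bar without KO lymphoma 3 holds 74 positive genes.

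The agreeing set depended on single pools. Without KO lymphoma 2, 158 genes agreed, of which 140 were negative and 44 were among the 60. Without KO lymphoma 3, 138 agreed, of which 74 were positive and 37 were among the 60. Without KO control 1 it was 38 (32 among the 60) and without WT lymphoma 2 it was 39 (32 among the 60). In the number of negative genes, 31 without KO control 2, 29 without KO control 3 and 31 without WT lymphoma 2 were also outside a 1.5-fold range of 49. For the positive genes this held without WT control 2 (6), WT control 3 (29), KO control 1 (4), WT lymphoma 1 (5), KO lymphoma 2 (18) and KO lymphoma 3 (74). With the mean log2 CPM of the 3 Y-linked genes as a covariate 43 agreed, 29 of them among the 60. In all 12 fits that left out a pool, 11 of the 60 agreed each time: Ccdc117, Dnajb1, Hsph1, Stip1, Oasl1, Oas1a, Lgals3bp, Txnip, Cyp2e1, 1600014C10Rik and Gm11942. In 11 of the 12 fits Tsc22d3, Zfp36l2, Cxcr4, H2-Q6 and B3gntl1 did. The other genes were less stable, and 31 of the 60 agreed in 6 or fewer of the 12 fits. Among those described above, Igtp, Rgs1 and Trmt6 agreed in 2 fits, Hspa8, Id2 and Mrpl42 in 3, Usp18, Jak3, Cirbp and Ddit4 in 4, Bst2 and Ly6a in 5, and Gp9 in 6.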

How the data were processed

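The data are RNA of splenic T cells in 24 libraries, 3 per group, made with a 3′ tag kit per the labels. The deposited values are estimated counts per gene, with no normalization named, which the authors made with Salmon 0.11.3 per the submitters' processing notes. The notes also name GRCh38, although the samples are mouse, and its role is not given. The sources used here do not say how counts were summarised to genes. In the table of 34113 genes, 2 with a non-numeric cell (0610010K14Rik and 0610030E20Rik) were dropped, and 0 columns went unused.

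Counts were rounded to whole numbers. Each cell type was fitted apart (12 libraries, 8 residual degrees of freedom) in R 4.3.3 with edgeR 4.0.16: filterByExpr (minimum count 10, minimum total 15), TMM factors (0.903 to 1.08 in CD4, 0.972 to 1.04 in CD8), robust quasi-likelihood test, Benjamini-Hochberg at 0.05. CD8 minus CD4 used all 24 libraries, and pools were also tested on summed counts. CPM uses TMM-scaled totals. List scores are mean log2 CPM with a prior count of 2. Alternatives were DESeq2 size factors, no filter, a filter of 30 counts in 3 libraries, voom weights per sample in limma 3.58.1, DESeq2 1.42.0, a Y-linked or mouse identifier covariate, other cell genes left out, replicate or pool blocks, 1 fit of 24 libraries, and each pool left out. The code was tested on simulated data.

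Members and the 31 gene lists were chosen with earlier results of these data known. Genes named were Atm, then the 12 negative and up to 12 positive agreeing genes (8 were eligible) with the smallest larger p and at least 5 CPM in a group mean, without predicted genes or receptor segments, then up to 4 agreeing members per list, or those with the smallest p in the summed pools. Genes named beyond this rule, among them Usp18, Ly6c2, Ly6a, Ddit4, H2-Q6, 1600014C10Rik, Gm11942 and Gm5244, were chosen after their values were seen.

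Same-pool CD4 and CD8 libraries pair by mouse identifier, with residual correlations of -0.028 to 0.557 over 12 pools, 10 of them above 0.1. 1 agreeing gene is not reported here.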

Additional observations from a re-analysis of the deposited data

How the results depend on the processing

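No gene passed the interaction test at an adjusted p of 0.05 under the main settings, and the counts stayed at 0 in CD4, CD8 and summed pools under every alternative run but DESeq2 and 2 left-out pools, WT control 2 and WT control 3. DESeq2 called 1 gene in CD4 (Rps16-ps2, a low-count pseudogene), 1 in CD8 (Usp18) and 2 in summed pools (Rps16-ps2 and Amy2a4). With each library or pool left out in turn the adjusted counts ran from 0 to 1 in CD4, CD8, summed pools and CD8 minus CD4, and the genes called were Gm11942 without WT control 2, Cxcr4 in CD4 without WT control 3 and Haao in CD8 minus CD4 without CD4 WT control 3. Unadjusted counts in those fits ran from 316 to 1068 in CD4, 306 to 1133 in CD8, 389 to 1127 in summed pools and 213 to 555 in CD8 minus CD4, and the agreeing genes from 38 to 158. With voom the unadjusted counts were 843, 681, 1046 and 496 in the same order, and 91 genes agreed, 40 of them among the 60. With no filter, 485 genes had an unadjusted p under 0.05 in CD8 minus CD4. At an unadjusted p under 0.01 in place of 0.05, 3 genes agreed, and at 0.1, 154 did, thresholds added after seeing the data. With the replicate number as a block, 0 genes passed, 460 in CD4 and 373 in CD8 had an unadjusted p under 0.05, and 58 agreed, 46 of them among the 60. Libraries that share only a number within a cell type come from different mice, with residual correlations from -0.212 to 0.344 in CD4 (7 of 18 pairs above 0.1) and -0.232 to 0.156 in CD8 (3 of 18). With the mouse pool as a block, CD8 minus CD4 had 520 genes at an unadjusted p under 0.05 and 0 that passed. Of the named genes, the interaction of Atm in CD4 turned positive with the Y-linked covariate (0.34) and without WT control 3 (0.05), WT lymphoma 2 (0.08) or KO lymphoma 3 (0.34), and ran from -0.49 to 0.34 over the left-out pools. That of Maf in CD8 turned positive without WT control 1, and ran from -0.46 to 0.05. The cause of these changes was not tested. With 3 libraries per group, a median standard error of 0.33 in CD4 and 0.30 in CD8 limits what can be detected.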
